A study of Rattus norvegicus with 16 samples.

Results

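The genes described here are the enzymes of cholesterol and fatty acid synthesis in rat liver, together with the proteins that control them. The set was given as 41 gene symbols, and a symbol was kept where the deposited count tables list it: 38 of the 41 were found among 17055 genes, and Acat2, Sc5d and Srebf1 were not. Cytochrome P450 enzymes of the pathway were left out of the set. The liver RNA came from male Sprague-Dawley rats aged 10 weeks that were kept under isoflurane, an inhaled anesthetic, or propofol, an infused one, for hours after abdominal surgery. In the sepsis groups the cecum was ligated and punctured (CLP), so that gut contents leak into the abdomen, and in the control groups it was only lifted out and put back (sham surgery). The 4 groups, Isoflurane-Sepsis (libraries 1 to 4), isoflurane control (5 to 8), Propofol-Sepsis (9 to 12) and propofol control (13 to 16), have 4 libraries each, every library being a pool of livers from several rats. All rats were thus anesthetized and operated on, and no group without anesthesia was analysed here. Propofol rats were first put to sleep with ketamine and xylazine and isoflurane rats with isoflurane, and the deposited tables of the 2 anesthetics carry different submission codes, so that the effect of the anesthetic cannot be told apart from these.

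Liver is the main organ of cholesterol synthesis and, in rodents, of new fatty acid synthesis. Cholesterol is built from acetyl-CoA through mevalonate, isoprenoid units, squalene and lanosterol. Fatty acids are built from the same acetyl-CoA by acetyl-CoA carboxylase and fatty acid synthase, then elongated, desaturated and joined to glycerol as triglyceride. Both programs are driven by the sterol regulatory element-binding proteins (SREBPs): Srebf2 encodes the form that mainly serves sterol genes and Srebf1 the forms that mainly serve fatty acid genes. Scap carries SREBPs out of the endoplasmic reticulum when sterols are scarce, and Insig1 and Insig2 hold the pair back when sterols are plentiful. Insig1 is itself a classical SREBP target.

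Since the members are known to share control at their promoters, upstream sequence is shown for the mevalonate genes Mvk and Mvd, for the sterol enzyme gene Nsdhl and for Insig1, which are among the members whose values differ most between groups. RefSeq promoter windows, from 250 bases before to 50 after the transcript start on the build GRCr8, were matched by symbol for 32 of the 41 members. The CCAAT box (CCAAT on either strand) was present in 24 of these 32 (75%), against 39.6% of 27457 genes with a window of the same length. The E-box CACGTG was present in 4 of 32 (12.5%, against 7.077%). The 32 include Acat2, Sc5d and Srebf1, which were not found among the counted genes. Of these, Sc5d and Srebf1 had a CCAAT box and Sc5d also the E-box. The window matched as Scd is that of the gene now so called, which was counted under the older name Scd1. One spelling of the sterol regulatory element, TCACNCCAC on either strand, was in 0 of 32 (against 1.253%), which says only that these letters are not in these windows. The stretches below end at the base before the transcript start, or, for Nsdhl and Insig1, before the annotated gene begins. Capitals mark CCAAT, its reverse complement ATTGG, and CACGTG. They cover chr12:47819504-47819703, minus strand, for Mvk, chr19:67414975-67415174, minus strand, for Mvd, chrX:155817160-155817300, plus strand, for Nsdhl, and chr4:8057813-8057969, minus strand, for Insig1.
Mvk: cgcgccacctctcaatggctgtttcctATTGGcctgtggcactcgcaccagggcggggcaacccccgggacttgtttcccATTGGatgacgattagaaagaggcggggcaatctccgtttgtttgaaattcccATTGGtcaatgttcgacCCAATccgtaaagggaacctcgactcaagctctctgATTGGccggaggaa
Mvd: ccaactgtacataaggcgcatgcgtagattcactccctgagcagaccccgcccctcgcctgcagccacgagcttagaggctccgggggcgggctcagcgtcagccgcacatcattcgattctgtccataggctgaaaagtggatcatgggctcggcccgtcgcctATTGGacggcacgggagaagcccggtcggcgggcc
Nsdhl: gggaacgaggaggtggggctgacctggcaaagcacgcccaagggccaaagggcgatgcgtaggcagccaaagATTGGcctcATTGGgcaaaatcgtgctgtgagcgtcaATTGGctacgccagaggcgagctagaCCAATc
Insig1: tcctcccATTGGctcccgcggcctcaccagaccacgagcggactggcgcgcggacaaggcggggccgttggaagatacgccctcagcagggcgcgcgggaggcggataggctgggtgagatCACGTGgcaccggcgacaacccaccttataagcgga

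The libraries held 14199422 to 49937173 reads on genes, and the members took between 0.350% and 0.709% of them. All levels are given as CPM, counts divided by the size of the library after TMM scaling, a correction for its makeup. The 9 markers of hepatocytes, the cells that make up most of the liver, summed to between 79083 and 134580 CPM in every library. That sum was lower in sepsis than in control under isoflurane (101843 to 112765 against 123907 to 134580 CPM), and under propofol it was 79083 to 91906 against 90419.5 to 101399 CPM, so that it was also higher in isoflurane than in propofol controls. The 7 endothelial markers present summed to 138 to 157 CPM in Isoflurane-Sepsis against 182 to 225 CPM in its control, and to 174 to 185 against 206 to 245 CPM under propofol. The 8 neutrophil and monocyte markers summed to 44.7 to 129 CPM in Isoflurane-Sepsis against 21.4 to 24.2 CPM in its control, and to 44.3 to 62.3 against 24.8 to 33.5 CPM under propofol. Of 6 adipocyte markers, which matter here because fat tissue makes many of the same enzymes, Plin1 was at 0 in all 16 libraries and the list summed to 10.0 to 50.7 CPM, higher in both sepsis groups. Lep was at 0 in every group but Propofol-Sepsis, and Adipoq in propofol controls. Only 2 of the 6 had enough counts to test in either sepsis comparison. Fabp4 had the larger called rise under isoflurane (log2 1.70) and the only one under propofol (log2 2.57). Library 10 (Propofol-Sepsis) stood apart, with 12 brain markers summing to 397 CPM against 8.88 to 32.1 CPM in the other 15. The part of these shifts in the results below was not tested, and in such bulk RNA fewer cells of a type and less RNA per cell cannot be told apart.

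Within each anesthetic, septic livers were set against control livers to ask how the synthesis genes responded to sepsis. In both anesthetics more members fell than rose. The members that fell under both included fatty acid synthase (Fasn), the triglyceride-forming enzyme Dgat2, the desaturase Fads1, the elongase Elovl2 and the sterol enzymes Nsdhl, Dhcr7 and Hsd17b7, while Insig1 and the sterol carrier Stard4 rose under both. Of the 37 members with enough counts to test under isoflurane, 18 were lower (48.6%) and 3 higher (8.11%) in sepsis at an adjusted p below 0.05 (edgeR's quasi-likelihood test with Benjamini-Hochberg adjustment over 10361 genes). The background was 24.4% of all genes tested lower and 25.7% higher, and the median log2 fold change was -0.38 over members and 0.0061 over all genes. Under propofol 17 members were lower (45.9%) and 4 higher (10.8%), against a background of 21.7% and 20.4% of 10348 genes, with medians of -0.23 over members and -0.0016 over all genes. The 2 comparisons share no library. Lower in both were 12 members, 66.7% of the 18 and 70.6% of the 17, and Insig1 and Stard4 were higher in both. Of all genes called lower 60.8% and 68.3% were lower in both, so the members' shares lay near the background. Of all genes called higher 54.9% and 69.2% were higher in both, beside 66.7% and 50% of the few members called higher. The call was reached under isoflurane alone by the falls of Ebp, Fads2, Hmgcs1, Msmo1, Mvk and Srebf2 and the rise of Insig2, and under propofol alone by the falls of Acaca, Gpam, Lpin2, Me1 and Thrsp and the rises of Lss and Mvd. Without library 1, 5 were higher under isoflurane. Whether a response differed between anesthetics was tested separately, as an interaction (last comparison below). Leaving out 1 library gave 13 to 17 members lower and 4 to 5 higher under propofol. Without library 10, 13 were lower and 5 higher. Library 10 was not alone in this, as Hsd17b7, Acaca, Acacb and Me1 lost the call without library 10, 11, 14 or 15 alike.

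**Figure D1:**
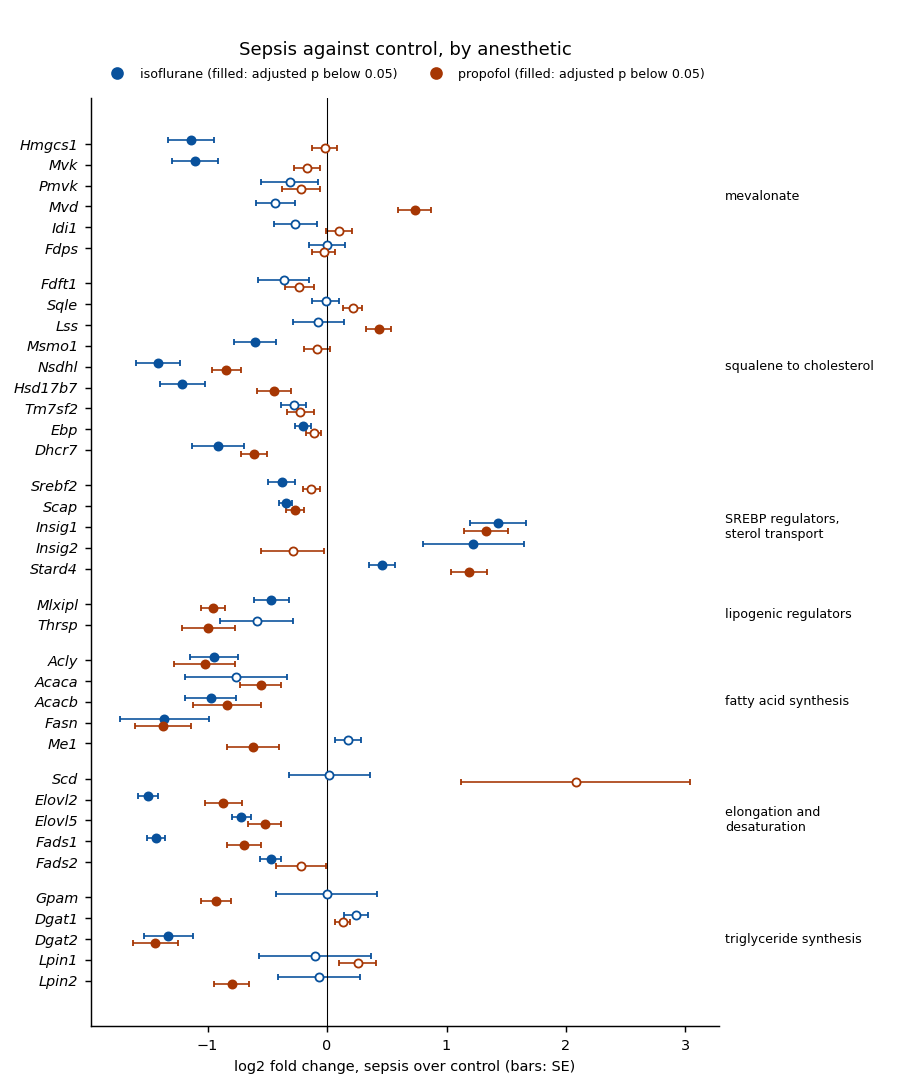
Log2 fold change of sepsis over control for the 37 members tested, by role, under isoflurane (blue) and propofol (brown). Bars are standard errors and filled points passed an adjusted p of 0.05. Insig1 lies above 1 in both anesthetics and Fasn and Dgat2 below -1, while Hmgcs1 and Mvk lie near -1.1 under isoflurane and near 0 under propofol.

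Isoflurane was compared with propofol in the absence of sepsis, to see how the members differed without it. In control liver the sterol genes stood higher under isoflurane: all 6 mevalonate genes, 8 of 9 genes from squalene to cholesterol and 4 of 5 SREBP regulators and carriers passed the test. Of the 5 fatty acid synthesis genes only Me1 passed, and it was lower. Over the whole set 22 of 37 members were higher under isoflurane (59.5%) and 3 lower (8.11%), against a background of 21.6% and 21.7% of 10314 genes. The median log2 fold change was 0.33 over members and -0.00049 over all genes. Scaling by library totals alone moved the median of all genes by -0.15 and turned the split over all genes from 2225 higher and 2243 lower into 1139 and 3824, and of the members 16 were then higher and 4 lower. The members that lost the call were Pmvk, Tm7sf2, Srebf2, Fads2, Gpam and Dgat1, with log2 values of 0.11 to 0.32. In 1 fit over all 16 libraries 13 members were higher and 1, Me1, lower. Pmvk, Fdft1, Lss, Nsdhl, Dhcr7, Srebf2, Insig2, Fads2 and Gpam then lost the call of a higher level (adjusted p = 0.0510 to 0.517), and Thrsp and Dgat2 that of a lower one. In septic liver 4 members were higher under isoflurane (10.8%) and 3 lower (8.11%), against 10.6% and 8.66% of 10272 genes, so that the members' shares lay near the background. The 4 were Insig1, Insig2, Stard4 and Dgat1 and the 3 were Fads1, Elovl2 and Me1. Only 1 was higher without library 9, 11 or 12 and only 1 lower without library 9 or 12, while 5 were lower without library 1. Under scaling by library totals 3 were higher and 4 lower. In 1 fit over all 16 libraries 9 were higher, with Idi1, Fdps, Gpam, Lpin1 and Lpin2 added, and under DESeq2 7, with Fdps, Gpam and Lpin2. Over all genes that single fit called 2085 higher and 2014 lower in septic liver against 1379 and 1414 in control liver, where the separate fits called more in control liver, so no order of the counts is read from them. The isoflurane controls serve both in the control-liver comparison and in that of sepsis under isoflurane, so that high values there would give a higher level in the first and a fall in the second. They also enter the interaction (last comparison below), where such values would give a more negative difference.

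**Figure D2:**
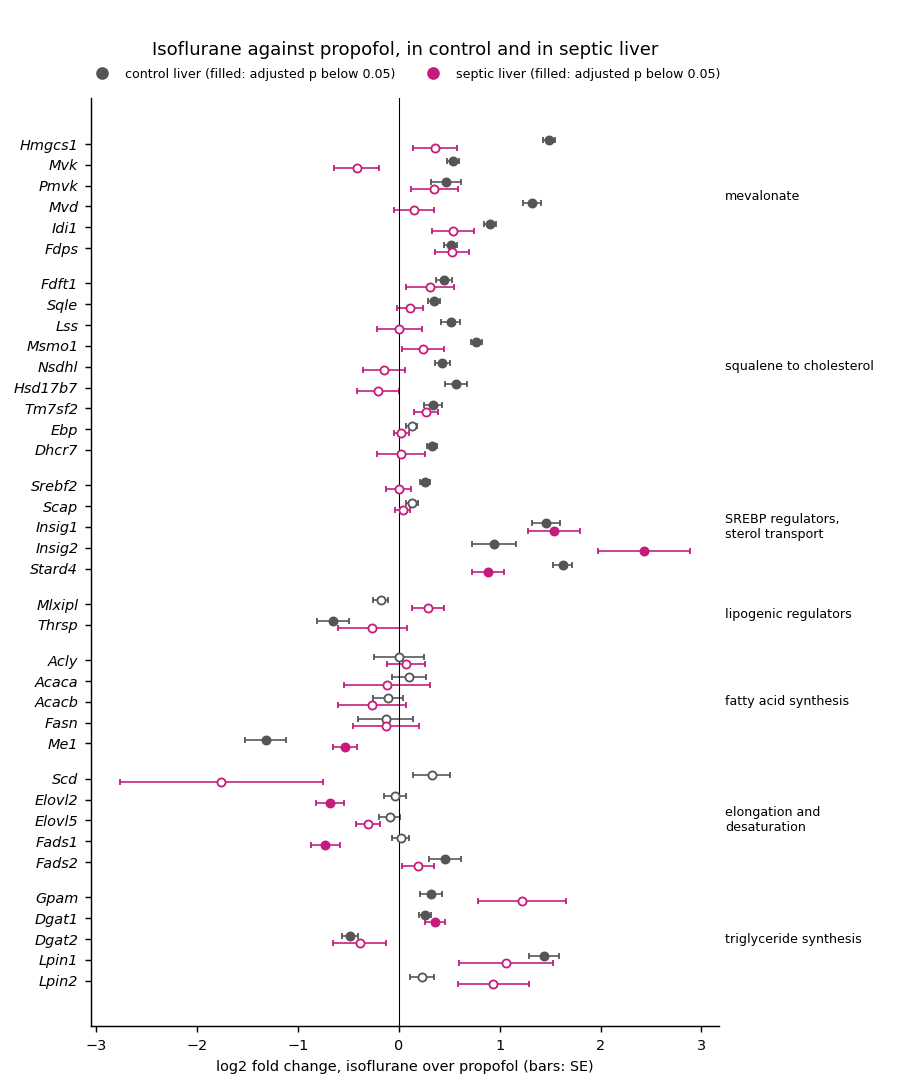
Log2 fold change of isoflurane over propofol for the 37 members tested, by role, in control liver (grey) and septic liver (magenta). Bars are standard errors and filled points passed an adjusted p of 0.05. In control liver every mevalonate gene and all but Ebp among the squalene-to-cholesterol genes are filled to the right of 0, and in septic liver none of these is filled.

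The mevalonate genes turn acetyl-CoA into farnesyl diphosphate. Hmgcs1 encodes the synthase that makes HMG-CoA, from which mevalonate is formed. Its level was 1364, 1162, 1293 and 1308 CPM in the isoflurane controls, against 855, 413, 490 and 570 CPM in Isoflurane-Sepsis. The propofol controls had 460, 443, 461 and 464 CPM and the Propofol-Sepsis libraries 430, 443, 379 and 560 CPM. Each isoflurane control was thus above each of the other 12 libraries, which overlapped among themselves. Hmgcs1 was 2.20-fold lower in sepsis under isoflurane (log2 -1.14 ± 0.19 SE, adjusted p = 0.001662) and differed by less than the spread between libraries under propofol (log2 -0.021 ± 0.11, adjusted p = 0.892). In control liver it was 2.80-fold higher under isoflurane (log2 1.49 ± 0.055, adjusted p = 2.961e-07).

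Mevalonate kinase (Mvk) was likewise highest in the isoflurane controls. The isoflurane controls lay at 23.5, 24.6, 24.8 and 24.96 CPM and Isoflurane-Sepsis at 17.2, 9.35, 8.50 and 10.2 CPM, a 2.16-fold fall (log2 -1.11 ± 0.19, adjusted p = 0.001787). The propofol controls had 16.7, 15.8, 16.9 and 18.2 CPM and Propofol-Sepsis 15.3, 12.5, 14.6 and 17.9 CPM, which overlap. Mvd, the decarboxylase that yields isopentenyl diphosphate, rose under propofol, from 10.6, 8.85, 8.76 and 11.2 CPM in the controls to 14.4, 15.8, 14.8 and 20.7 CPM in sepsis. The lowest septic library was above the highest control (log2 0.73 ± 0.14, adjusted p = 0.002343). Under isoflurane Mvd was 25.6, 24.7, 22.6 and 25.6 CPM in controls and 25.7, 15.7, 14.3 and 17.2 CPM in sepsis, where library 1 lay at the level of the controls and the other 3 below it. That difference (log2 -0.43 ± 0.16, adjusted p = 0.0505) lay at the threshold. It passed with the same libraries under DESeq2 (adjusted p = 0.0430), limma-voom (0.0338), library totals (0.0326), no filter or a mean CPM of at least 1 (0.0485 and 0.0488), thinned counts (0.0434) and 1 fit over all 16 libraries (0.0323), and also without library 1 (log2 -0.64, adjusted p = 0.000589).

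The other mevalonate genes did not pass the test in either sepsis comparison. Pmvk, the second kinase, Idi1, the isomerase of isopentenyl diphosphate, and Fdps, farnesyl diphosphate synthase, had log2 values of -0.31, -0.27 and -0.0013 under isoflurane and -0.22, 0.097 and -0.029 under propofol. Between the anesthetics in control liver they differed: Idi1 was 223.6 ± 13.9 CPM (SD, n = 4) under isoflurane and 119.5 ± 6.86 CPM under propofol, with no overlap, and Fdps 339 ± 15.3 and 237 ± 21.5 CPM. Pmvk, at 19.0 ± 3.06 and 13.8 ± 3.02 CPM, overlapped between the groups and lost its call under library totals (adjusted p = 0.0972) and without library 6, 8, 13 or 16 (adjusted p = 0.0723 to 0.0948). The row Acat3, which RefSeq gives as an older name of the acetyl-CoA acetyltransferase gene Acat2, was added after its values were seen and is not counted among the members. It was 21.2 ± 1.94 CPM in isoflurane controls and 10.4 ± 0.954 CPM in propofol controls, and rose in sepsis under propofol (log2 0.42 ± 0.12, adjusted p = 0.0204), a call that was lost without library 14 (adjusted p = 0.0595).

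**Figure D3:**
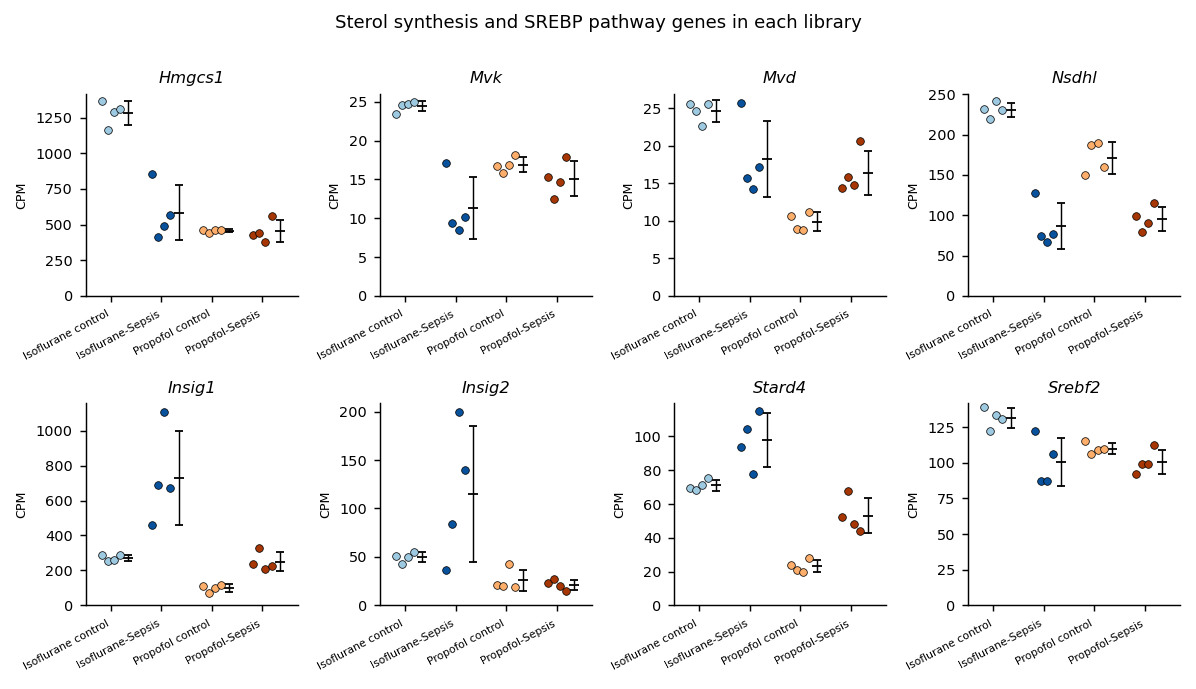
CPM of 8 sterol and SREBP pathway genes in each of the 16 libraries, by group, with the mean and SD of each group beside the points. For Hmgcs1 and Mvk the 4 isoflurane controls lie above all other libraries, and for Insig1 the 4 Isoflurane-Sepsis libraries do, with library 3 at 1104 CPM.

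From squalene to cholesterol, 5 of 9 genes (55.6%) fell in sepsis under isoflurane, and 3 fell (33.3%) and 1 rose (11.1%) under propofol. Over all genes tested, 24.4% were lower under isoflurane, and 21.7% were lower and 20.4% higher under propofol. Among these 9 sterol genes, the largest fall in each anesthetic was that of Nsdhl. This dehydrogenase, which acts in stripping methyl groups from lanosterol, was 232, 220, 241 and 230 CPM in isoflurane controls and 128, 74.8, 66.6 and 76.5 CPM in Isoflurane-Sepsis. It was 150, 187, 190 and 159 CPM in propofol controls and 98.6, 79.2, 90.8 and 115 CPM in Propofol-Sepsis. Septic and control libraries did not overlap in either anesthetic, with a 2.67-fold fall under isoflurane (log2 -1.42 ± 0.18, adjusted p = 0.000427) and a 1.80-fold fall under propofol (log2 -0.84 ± 0.12, adjusted p = 0.000555). Hsd17b7, the ketoreductase of the same step, fell 2.31-fold under isoflurane (26.6 ± 1.39 to 11.5 ± 3.86 CPM) and 1.36-fold under propofol (17.9 ± 3.52 to 13.2 ± 1.70 CPM). The call under propofol (adjusted p = 0.0286) was lost without library 9, 10, 11, 14 or 15 (adjusted p = 0.0531 to 0.0738) and in 1 fit over all 16 libraries (adjusted p = 0.0639). Dhcr7, the last reductase before cholesterol, fell from 85.7 ± 2.47 to 45.4 ± 16.6 CPM under isoflurane and from 68.1 ± 2.85 to 44.7 ± 7.20 CPM under propofol.

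Sqle, the epoxidase that is a slow step of the pathway, moved little by comparison. It was 184, 170, 177 and 176 CPM in isoflurane controls and 217, 153, 149 and 182 CPM in Isoflurane-Sepsis (log2 -0.013 ± 0.11, adjusted p = 0.931). In propofol controls it was 135, 132, 154 and 135 CPM and in Propofol-Sepsis 155, 153, 154 and 186 CPM. All but library 15 of those controls lay below the septic libraries, and the difference missed the threshold (log2 0.22 ± 0.081, adjusted p = 0.0555), which it passed without library 10 (adjusted p = 0.0378) or 15 (adjusted p = 0.0352) and under DESeq2 (adjusted p = 0.0463). Lss, which closes the sterol rings, rose under propofol, from 96.5, 82.8, 111 and 85.9 CPM to 121, 113, 135 and 140 CPM (log2 0.43 ± 0.10, adjusted p = 0.00818), and every septic library was above every control. The call was lost in 1 fit over all 16 libraries (adjusted p = 0.0714). Under isoflurane its septic libraries ran from 84.1 to 191 CPM around controls of 123 to 144 CPM. Msmo1, the methyl oxidase, fell under isoflurane (325 ± 14 to 213 ± 65.1 CPM, adjusted p = 0.0185) and had 191 ± 8.78 and 181 ± 31.9 CPM under propofol.

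Ebp, the sterol isomerase, was 1.15-fold lower in sepsis under isoflurane (adjusted p = 0.0351), a call that was lost without library 2, 4, 5, 6 or 8 (adjusted p = 0.0559 to 0.113). Fdft1, squalene synthase, and Tm7sf2, a sterol reductase, did not pass in either sepsis comparison (log2 -0.36 and -0.28 under isoflurane, -0.23 and -0.22 under propofol). Tm7sf2 had all its septic libraries below its controls under isoflurane. Its adjusted p of 0.0503 lay at the threshold, which it passed under DESeq2 (0.0391), limma-voom (0.0474), library totals (0.0166), no filter or a mean CPM of at least 1 (0.0349 and 0.0489) and 1 fit over all 16 libraries (0.0410). The row Sc5dl, an older name of the member Sc5d, a desaturase of the pathway, fell under both anesthetics (log2 -0.78 and -0.67, adjusted p = 0.00023 and 0.00038). In control liver the isoflurane value of the called genes exceeded that of propofol by log2 0.33 (Dhcr7) to 0.77 (Msmo1). Msmo1 was at 325 ± 14 against 191 ± 8.78 CPM. Of the 8 called genes, Tm7sf2 lost the call under scaling by library totals (adjusted p = 0.0778), where Ebp, uncalled, turned to -0.018. Fdft1, Lss, Nsdhl and Dhcr7 lost it in 1 fit over all 16 libraries (adjusted p = 0.0926, 0.0510, 0.0692 and 0.196).

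Among the regulators, the SREBP-2 gene and its escort fell slightly in sepsis under isoflurane while the genes of the retention proteins rose. Srebf2 was 139, 122, 134 and 131 CPM in isoflurane controls and 122, 87.3, 87.1 and 106 CPM in Isoflurane-Sepsis, where library 1 met the lowest control (log2 -0.38 ± 0.11, adjusted p = 0.0179, and 0.0516 without library 5). Under propofol it was 115, 106, 109 and 110 CPM in controls, and in Propofol-Sepsis 92.0, 98.8, 99.4 and 112 CPM, which overlapped (adjusted p = 0.151). Scap fell under both anesthetics without overlap, from 87.0 ± 2.49 to 68.3 ± 1.64 CPM under isoflurane and from 79.5 ± 5.39 to 66.4 ± 4.69 CPM under propofol. Srebf1 has no row of that symbol and was not analysed here.

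Insig1 was the member with the largest called rise under each anesthetic. Its level was 288, 254, 258 and 288 CPM in isoflurane controls and 459, 686, 1104 and 672 CPM in Isoflurane-Sepsis, a 2.70-fold rise (log2 1.43 ± 0.24, adjusted p = 0.001403). The propofol controls had 113, 67.9, 102 and 115 CPM and the Propofol-Sepsis libraries 234, 331, 210 and 227 CPM, a 2.51-fold rise (log2 1.33 ± 0.18, adjusted p = 0.000471). The groups did not overlap in either anesthetic. The level itself differed between anesthetics, being 2.74-fold higher under isoflurane in control liver (log2 1.46 ± 0.14, adjusted p = 3.01e-05) and 2.91-fold higher in septic liver (log2 1.54 ± 0.26, adjusted p = 0.0116). Of the Propofol-Sepsis libraries only library 10, at 331 CPM, reached the isoflurane controls, and the other 3 lay below each of them.

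Insig2, the second retention protein, behaved less evenly. It was 50.6, 43.0, 49.5 and 55.3 CPM in isoflurane controls and 36.5, 84.3, 199 and 140 CPM in Isoflurane-Sepsis, so that library 1 was below all controls and library 3 far above. The rise (log2 1.22 ± 0.42, adjusted p = 0.0382) lost its call without library 3, 4, 5, 6, 7 or 8 (adjusted p = 0.0717 to 0.103) and under limma-voom (adjusted p = 0.0986), and its log2 value was 0.80 without library 3. Propofol controls were at 21.4, 19.8, 42.5 and 19.3 CPM and Propofol-Sepsis libraries at 23.4, 27.03, 19.5 and 15.3 CPM, with overlap (log2 -0.29 ± 0.27, adjusted p = 0.407). In septic liver Insig2 showed the largest difference between anesthetics of any called member, 5.39-fold higher under isoflurane (log2 2.43 ± 0.46, adjusted p = 0.0148), and this call was lost without library 9, 11 or 12 (adjusted p = 0.0529 to 0.0600).

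Stard4, a carrier that moves cholesterol between membranes, rose under both anesthetics without overlap. Isoflurane controls had 69.7, 68.3, 71.1 and 75.7 CPM and Isoflurane-Sepsis 93.9, 105, 77.8 and 115 CPM (log2 0.46 ± 0.11, adjusted p = 0.00788). Propofol controls had 24.1, 20.9, 19.8 and 27.7 CPM and Propofol-Sepsis 52.3, 67.6, 48.1 and 43.8 CPM (log2 1.19 ± 0.15, adjusted p = 0.000289). The propofol rise started from a level 3.08-fold below that of the isoflurane controls and ended below it. In septic liver Stard4 was 1.84-fold higher under isoflurane (adjusted p = 0.0137), a call that was lost without library 9, 11 or 12 (adjusted p = 0.0516 to 0.0532).

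Among the 2 lipogenic regulators and 5 fatty acid synthesis genes, 4 fell under isoflurane and all 7 under propofol. Over all genes tested, 24.4% and 21.7% were lower in sepsis. None of the 7 passed the interaction test (last comparison below), so these counts do not show a wider fall under propofol. In control liver Thrsp and Me1 were lower under isoflurane. Mlxipl encodes ChREBP, the glucose-sensing factor that drives lipogenic genes. It was 74.2, 70.5, 80.3 and 86.0 CPM in isoflurane controls and 48.8, 54.6, 73.0 and 47.4 CPM in Isoflurane-Sepsis, where only library 3 reached the range of the controls (log2 -0.47 ± 0.15, adjusted p = 0.0255). That call was lost without library 1, 2, 4, 7 or 8 (adjusted p = 0.0519 to 0.0711). In propofol controls Mlxipl was 83.7, 82.7, 89.2 and 97.4 CPM and in Propofol-Sepsis 52.1, 46.4, 37.5 and 46.7 CPM, a 1.94-fold fall with a wide gap between the groups (log2 -0.96 ± 0.10, adjusted p = 0.00012).

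Thrsp (Spot 14), a lipogenic protein that responds to thyroid hormone and carbohydrate, was 354, 375, 382 and 376 CPM in isoflurane controls and 341, 338, 201 and 109 CPM in Isoflurane-Sepsis. The groups did not overlap, but the septic libraries were so far apart that the test did not pass (log2 -0.59 ± 0.30, adjusted p = 0.135). In the propofol controls, levels were 422, 751, 698 and 473 CPM and in Propofol-Sepsis 282, 339, 201 and 361 CPM, a 1.99-fold fall (log2 -0.99 ± 0.22, adjusted p = 0.00591). In control liver Thrsp was 1.58-fold lower under isoflurane (adjusted p = 0.00681, and 0.106 in 1 fit over all 16 libraries).

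Fasn, the synthase that builds palmitate, had one of the largest falls in each anesthetic. It was 672, 664, 1351 and 689 CPM in isoflurane controls, with library 7 far above the others, and 506, 427, 178 and 205 CPM in Isoflurane-Sepsis (2.57-fold lower, log2 -1.36 ± 0.37, adjusted p = 0.0149). In propofol controls it was 686, 1213, 1177 and 625 CPM and in Propofol-Sepsis 388, 270, 349 and 426 CPM (2.59-fold lower, log2 -1.37 ± 0.23, adjusted p = 0.001355). Every septic library was below every control of its anesthetic. Acly, which makes cytosolic acetyl-CoA from citrate, was 261, 238, 369 and 269 CPM in isoflurane controls and 205, 148, 109 and 126 CPM in Isoflurane-Sepsis (log2 -0.95 ± 0.20, adjusted p = 0.004615). Under propofol it was 195, 370, 395 and 176 CPM in controls, and in Propofol-Sepsis 149, 127, 122 and 163 CPM (log2 -1.02 ± 0.25, adjusted p = 0.00987). Libraries 14 and 15 were the 2 highest propofol controls for both genes, as for 10 of the 17 fatty acid and triglyceride members tested.

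The acetyl-CoA carboxylase genes make malonyl-CoA, Acaca for synthesis and Acacb for the control of mitochondrial fatty acid entry. Acacb was lower in sepsis under both (log2 -0.98 and -0.84), at a low level of 2.25 to 9.19 CPM, and its call under propofol was lost without library 10, 11, 12, 13, 14 or 15 (adjusted p = 0.0524 to 0.107). Acaca ranged from 60.5 to 270.3 CPM in Isoflurane-Sepsis and its log2 value of -0.76 ± 0.43 did not pass (adjusted p = 0.168). It fell under propofol (log2 -0.56 ± 0.17, adjusted p = 0.0271), a call lost without library 10, 11, 12, 14 or 15 (adjusted p = 0.0526 to 0.0791) and in 1 fit over all 16 libraries (adjusted p = 0.232). Malic enzyme (Me1), a source of NADPH for synthesis, was the member whose level was most reduced under isoflurane in control liver, at 34.6 ± 0.932 CPM against 86.5 ± 30.7 CPM (2.50-fold lower, adjusted p = 0.000566). Its fall in sepsis under propofol (log2 -0.62, adjusted p = 0.0433) was lost without any 1 of libraries 9 to 15 (adjusted p = 0.0527 to 0.107), with a log2 value of -0.39 without library 15. It was also lost under limma-voom (adjusted p = 0.0678) and with no filter (adjusted p = 0.0502). Under isoflurane the log2 value of Me1 was 0.18 (adjusted p = 0.198).

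**Figure D4:**
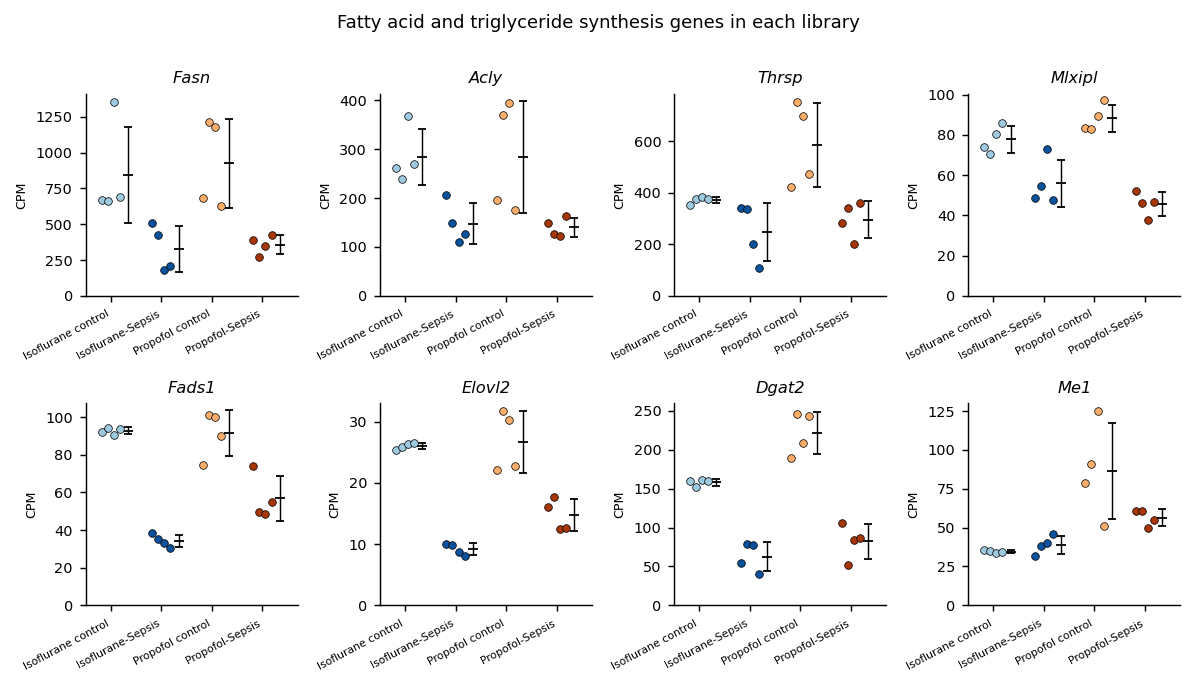
CPM of 8 fatty acid and triglyceride synthesis genes in each of the 16 libraries, by group, with the mean and SD of each group beside the points. Fads1, Elovl2 and Dgat2 separate sepsis from control in both anesthetics, and the propofol controls of Fasn, Acly and Thrsp fall into a higher and a lower pair of libraries.

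Of the desaturases and elongases of polyunsaturated fatty acids, Fads1, Elovl2 and Elovl5 fell under both anesthetics and Fads2 passed under isoflurane. Fads1, the delta-5 desaturase, was 92.1, 94.3, 90.2 and 93.9 CPM in isoflurane controls and 38.2, 35.2, 33.2 and 30.5 CPM in Isoflurane-Sepsis, a 2.70-fold fall (log2 -1.43 ± 0.076, adjusted p = 1.053e-05). The propofol controls had 74.7, 101, 99.8 and 89.7 CPM and the Propofol-Sepsis libraries 74.0, 49.6, 48.6 and 54.7 CPM, with library 9 just below the lowest control (log2 -0.70 ± 0.15, adjusted p = 0.00421). The control groups overlapped (log2 0.020, adjusted p = 0.868), while Fads1 was 1.66-fold lower under isoflurane in septic liver (adjusted p = 0.0163, and 0.0558 without library 12).

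Elovl2, which elongates the products of the desaturases, was 25.4, 25.8, 26.3 and 26.5 CPM in isoflurane controls and 10.0, 9.86, 8.76 and 8.10 CPM in Isoflurane-Sepsis, a 2.83-fold fall (log2 -1.50 ± 0.084, adjusted p = 1.603e-05). In the propofol groups it went from 26.7 ± 5.04 to 14.7 ± 2.59 CPM (log2 -0.87 ± 0.16, adjusted p = 0.00193), again without overlap. In septic liver it was 1.61-fold lower under isoflurane (adjusted p = 0.0181, and 0.0631 without library 9). Elovl5, a related elongase, fell by 0.72 and 0.52 on the log2 scale under isoflurane and propofol, with overlapping libraries under propofol. Fads2, the delta-6 desaturase, fell under isoflurane (51.3 ± 4.58 to 37.0 ± 3.17 CPM) and had 37.3 ± 10.5 and 32.4 ± 8.20 CPM under propofol (adjusted p = 0.433). Its higher level under isoflurane in control liver (adjusted p = 0.0365) lost the call without library 5, 6, 8, 13, 14 or 16 (adjusted p = 0.0538 to 0.0964). Elovl6, which elongates palmitate, was at 0 to 0.571 CPM and was not tested.

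The row Scd needs care, because RefSeq gives Scd as an older name of Scd2 and Scd1 as that of the gene now called Scd, the main stearoyl-CoA desaturase of liver. Scd was 7.01, 10.1, 9.43 and 8.92 CPM in isoflurane controls and 4.39, 5.93, 14.7 and 10.6 CPM in Isoflurane-Sepsis. Propofol controls were at 4.76, 7.86, 6.10 and 9.36 CPM and Propofol-Sepsis libraries at 9.83, 102, 4.12 and 5.11 CPM, where 102 CPM is library 10, the library with the high brain markers. The log2 fold change under propofol was 2.08 ± 0.96 (adjusted p = 0.107, and 0.0488 in 1 fit over all 16 libraries) with that library and -0.18 (adjusted p = 0.679) without it. The row Scd1, not counted among the members, was 389, 606, 1009.9 and 1307 CPM in Isoflurane-Sepsis against 438, 441, 427 and 442 CPM in its controls, and 243, 327, 126 and 149 CPM in Propofol-Sepsis against 230.002, 422, 463 and 232 CPM. All 4 Isoflurane-Sepsis libraries lay above all Propofol-Sepsis libraries (log2 1.97 ± 0.42, adjusted p = 0.0197), a call that was lost without library 9, 11 or 12 (adjusted p = 0.0603 to 0.0706). The rise under isoflurane (log2 0.93 ± 0.32, adjusted p = 0.0368) was lost without library 3, 4, 5, 6, 7 or 8 (adjusted p = 0.0776 to 0.0839). It was also lost under limma-voom (adjusted p = 0.0725). Under propofol Scd1 did not pass (log2 -0.68, adjusted p = 0.122), but it did without library 10 (log2 -0.96, adjusted p = 0.0291).

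**Figure D5:**
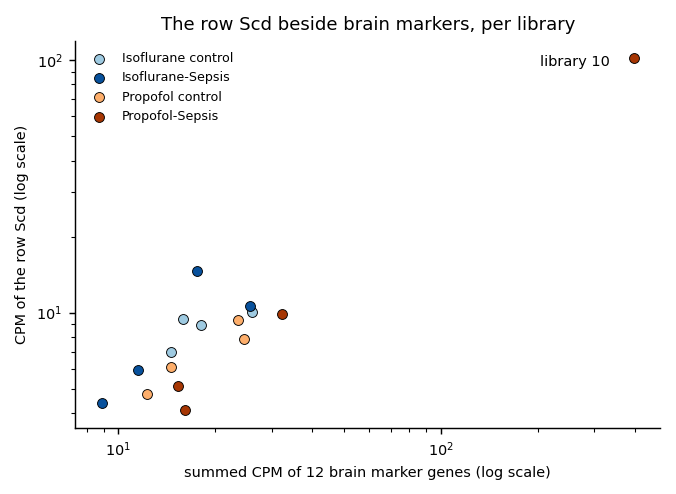
CPM of the row Scd against the summed CPM of 12 brain marker genes in each of the 16 libraries, both on log axes. Library 10 lies at 102 CPM and 397 CPM, and the other 15 libraries lie within 4.12 to 14.7 CPM and 8.88 to 32.1 CPM.

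Of the 5 triglyceride synthesis genes, 1 was lower in sepsis under isoflurane (20%) and 3 under propofol (60%), and none was called higher. Over all genes tested, 24.4% and 21.7% were lower. The largest fall of the 5 in each anesthetic was that of Dgat2, the acyltransferase that uses newly made fatty acid. Dgat2 was 160, 152, 161 and 160 CPM in isoflurane controls and 54.4, 78.96, 78.0 and 39.8 CPM in Isoflurane-Sepsis (2.51-fold lower, log2 -1.33 ± 0.20, adjusted p = 0.000943). In the propofol controls, levels were 189, 246, 209 and 243 CPM and in Propofol-Sepsis 106, 52.2, 84.1 and 86.3 CPM (2.71-fold lower, log2 -1.44 ± 0.19, adjusted p = 0.000353). Septic libraries were below controls throughout, and in control liver Dgat2 was 1.40-fold lower under isoflurane (adjusted p = 0.000773, and 0.0898 in 1 fit over all 16 libraries). Dgat1, the other acyltransferase, did not pass in either sepsis comparison (log2 0.24 and 0.13), though under isoflurane it did in 1 fit over all 16 libraries (adjusted p = 0.0233), and was slightly higher under isoflurane in control liver (38.1 ± 2.47 against 31.8 ± 1.97 CPM) and septic liver (45.0 ± 5.93 against 35.0 ± 1.25 CPM). Both calls were lost under library totals (adjusted p = 0.172 and 0.125), and the one in septic liver also without library 3, 4, 9, 11 or 12 (adjusted p = 0.05002 to 0.102).

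Gpam, which starts glycerolipid assembly, and the phosphatidate phosphatases Lpin1 and Lpin2 differed widely within Isoflurane-Sepsis. There Gpam ranged from 7.19 to 34.2 CPM, Lpin1 from 84.0 to 521 CPM and Lpin2 from 21.7 to 76.2 CPM, with library 3 the highest for all 3, and none passed the test against controls of 18.1 ± 2.46, 287 ± 41.2 and 44.6 ± 5.17 CPM. Under propofol Gpam fell from 14.5 ± 1.59 to 7.67 ± 1.14 CPM (log2 -0.93 ± 0.12, adjusted p = 0.000372) and Lpin2 from 38.1 ± 6.62 to 22.1 ± 4.03 CPM (log2 -0.80 ± 0.15, adjusted p = 0.00224). Lpin1, also a coactivator of fatty acid oxidation genes, had 106 ± 22.5 and 127 ± 16.2 CPM (log2 0.26, adjusted p = 0.204). In control liver Lpin1 was 2.71-fold higher under isoflurane without overlap (adjusted p = 5.114e-05). Gpam (log2 0.32, adjusted p = 0.0329) was slightly higher there, and lost the call without library 5, 8, 13, 14 or 15 (adjusted p = 0.0676 to 0.107).

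Whether sepsis acted differently under the 2 anesthetics was asked with an interaction term fitted to all 16 libraries, that is the response under isoflurane minus that under propofol. A total of 4 members passed, all with a more negative log2 fold change in sepsis under isoflurane than under propofol. The background was 1.06% of 10621 genes lower in this sense and 1.66% higher. These 4 (10.8% of 37 members) were Mvd (log2 -1.17 ± 0.23, adjusted p = 0.0233), Hmgcs1 (-1.13 ± 0.24, adjusted p = 0.0292), Mvk (-0.95 ± 0.24, adjusted p = 0.0473) and Fads1 (-0.75 ± 0.18, adjusted p = 0.0403). The first 3 belong to the mevalonate steps. These 3 were called higher under isoflurane in control liver and were not called in septic liver. The interaction uses the same control libraries, so its calls are not separate from the difference between the controls. No member passed in the other direction, where Insig2, Me1 and Mlxipl had an unadjusted p below 0.05 and DESeq2 called 0. The rows Scd1 and Acat3, not counted among the members, did not pass (log2 1.59 and -0.71, adjusted p = 0.0830 and 0.0812). Under DESeq2 both passed, Scd1 as higher and Acat3 as lower (adjusted p = 0.0405 and 0.0403). Scd1 also passed without library 1 or 10 (adjusted p = 0.0159 and 0.0482), and Acat3 without library 1 (adjusted p = 0.00476). The median over members was -0.21 and over all genes -0.016, and 25 of the 37 values were below 0, among them all 9 from squalene to cholesterol.

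These calls lay close to the threshold. Without library 1, the Isoflurane-Sepsis library with the highest level in 10 of the 15 sterol enzyme genes, 12 members were lower and 2 higher, and without library 6, 8 or 12 none was lower. Mvd lost its call without library 6, 8 or 12 (adjusted p = 0.0503 to 0.0523) and Hmgcs1 without library 3, 5, 6, 7, 8, 9, 12, 13, 14 or 15 (adjusted p = 0.0509 to 0.0642). With 1 library left out, Mvk kept it only without library 1 or 10, and Fads1 only without library 1, 4, 10 or 11. Both also lost it with no filter (adjusted p = 0.0598 and 0.0522) and with thinned counts (0.0513 and 0.0506). Direction held for all 4 in every fit that left out 1 library. Stard4 had the next lowest adjusted p (log2 -0.74 ± 0.20, adjusted p = 0.0584), its rise being larger under propofol. It passed under DESeq2 (adjusted p = 0.0106) and without library 1, 4 or 16 (adjusted p = 0.0342 to 0.0417). Elovl2 (log2 -0.64, adjusted p = 0.0738) passed under DESeq2 (adjusted p = 0.0330) and without library 1 (adjusted p = 0.0334). Insig1, with a rise of similar size in each anesthetic, had a difference of 0.089 ± 0.31, and Insig2 one of 1.49 ± 0.54 (adjusted p = 0.121).

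The libraries of one group did not vary alike. The median SD of log2 CPM over the 37 members was 0.423 in Isoflurane-Sepsis, 0.0865 in isoflurane controls, 0.224 in Propofol-Sepsis and 0.200 in propofol controls, and 25 of the 37 members varied most in Isoflurane-Sepsis. Over all genes with enough reads, pairs of libraries differed by a chi-square of 25.4 to 102 per degree of freedom in Isoflurane-Sepsis and 3.47 to 12.7 in isoflurane controls. The range was 7.95 to 46.8 in Propofol-Sepsis and 6.69 to 28.3 in propofol controls. The wide spread in Isoflurane-Sepsis was thus not confined to the members. Library 12 was the highest Propofol-Sepsis library for 13 of the 15 sterol enzyme genes. Since each library is a pool, this spread is between pools and not between rats.

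Genes next to the set in the same pathways moved in both directions in some lists. Among genes that supply acetyl-CoA or NADPH and among other glycerolipid genes, none was called higher in either sepsis comparison. The counts of all these lists stand beside a background over all genes of 25.7% higher and 24.4% lower under isoflurane and 20.4% and 21.7% under propofol. Of 11 other isoprenoid and sterol enzymes tested, 2 rose and 6 fell under isoflurane and 5 rose and 5 fell under propofol. Among these, the prenyltransferase subunit genes had the largest rises, Fntb under propofol (log2 0.74, adjusted p = 0.00635) and Fnta under isoflurane (0.72, adjusted p = 0.00865), and Cyb5r3, a reductase that supplies electrons, the largest fall in both (-1.33 and -0.96). Of 15 other SREBP and LXR factors, 1 rose and 7 fell under isoflurane, and 3 rose and 5 fell under propofol. Syvn1, a ubiquitin ligase of the endoplasmic reticulum, rose most in each (0.41 and 0.67), while the falls were largest for Rxra, a nuclear receptor partner, under isoflurane (-1.19) and for the coactivator gene Ppargc1b under propofol (-1.30). Of 14 genes of cholesterol uptake, efflux and esterification, 3 rose and 6 fell under isoflurane and 4 rose and 7 fell under propofol. The cholesterol exporter Abca1 rose most (0.83 and 1.31) and Soat2, which esterifies cholesterol in liver, fell most (-1.46 and -1.39).

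Of 7 genes that supply acetyl-CoA or NADPH, 4 fell under isoflurane and 6 under propofol. Idh1, a cytosolic dehydrogenase that yields NADPH, had the largest fall in both (-1.63 and -1.54). Of 8 other elongation and acyl-CoA enzymes, 2 rose and 2 fell under isoflurane and 2 rose and 3 fell under propofol, shares near that background under isoflurane, led by the acyl-CoA synthetases Acsl4 (0.64 and 0.59) and Acsl1 (-1.58 and -1.77). Of the other glycerolipid genes, 7 of 9 tested fell under isoflurane and 6 of 10 under propofol, with the lipid droplet gene Plin5 the largest fall under isoflurane (-2.21) and the lipase gene Mgll under propofol (-1.86).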

How the data were processed

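Liver RNA of 16 libraries, each a pool of rats, was analysed, with 4 libraries in each of 4 groups assigned from the sample labels. The libraries were made from poly(A) RNA with a kit that keeps the strand. For each library the authors deposited counts, the whole number of reads per gene symbol, without normalization. The submitters' processing notes name STAR and rn5. For the counting program and annotation, nothing is given in the sources used here. Reads shared by near-identical or overlapping genes therefore cannot be checked, and no coordinates on that build are printed. Reads outside genes and ambiguous reads (21.6% to 25.4% and 1.07% to 1.35% of all) were left out. Depth was 14199422 to 49937173 reads on genes, and this sets the precision of genes near 10 CPM or below.

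Counts were tested with edgeR 4.0.16 in R 4.3.3 (TMM, quasi-likelihood test, genes kept by filterByExpr at min.count 10 and min.total.count 15), in fits of 4 against 4 libraries, and all 16 for the interaction. P-values were adjusted over all genes tested by Benjamini and Hochberg, and an adjusted p below 0.05 was called. The study's own tool, DESeq2 (1.42.0), and limma (3.58.1) were alternatives, beside other scalings, filters, thinned counts, a threshold of 0.01 and each library left out. The scripts were tested on simulated counts. Replicates are separate pools, and pairs of the same group differed by a chi-square of 3.47 to 102 per degree of freedom, so each was counted as its own replicate.

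The members and lists were chosen with earlier results of these data known. Values in every library are given for 10 genes fixed by name (of which Srebf1 has no row) and for the 5 called members with the largest rise and fall in each sepsis comparison and the interaction. Of the neighbouring lists, the called genes with the largest rise and fall are named. Some genes of these lists are not reported here and are left out of their counts.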

Additional observations from a re-analysis of the deposited data

Results flagged for a closer look

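A library was taken as standing apart where its gap to the next of the 4 libraries exceeded Dixon's critical share of the group's range. Of 160 sets of 4 libraries (40 gene rows in 4 groups), 12 met this, where chance gives about 8. In Isoflurane-Sepsis library 1 was the highest for Nsdhl (128 CPM), Hsd17b7 (17.2 CPM) and the row Acat3 (24.3 CPM), and in isoflurane controls library 7 for Fasn (1351 CPM). In Propofol-Sepsis library 12 was the highest for Sqle (186 CPM) and Msmo1 (228 CPM), library 9 for Acaca (236 CPM) and Fads2 (44.7 CPM) and library 10 for Scd (102 CPM). In propofol controls library 15 was the highest for Sqle (154 CPM) and Insig2 (42.5 CPM) and library 16 for Gpam (16.9 CPM). The response to sepsis differed between the anesthetics in the interaction test for Hmgcs1 (log2 -1.13), Mvk (-0.95), Mvd (-1.17) and Fads1 (-0.75). The cause of these values was not tested.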

How the results depend on the processing

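No paired analysis was possible because the sample numbers run from 1 to 16 and none is shared between groups. For single genes, 2085 of 2337 values from the alternatives kept both direction and side of the threshold, 149 lost the call, 69 gained it and 34 changed direction, none of these with an adjusted p below 0.05. The cause of these shifts was not tested.

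Counts of members called moved as follows. At a threshold of 0.01, 11 members were lower in sepsis under propofol, and in edgeR 0 were higher or lower under isoflurane in septic liver and 0 lower in the interaction. In 1 fit over all 16 libraries 13 members were higher and 1 lower under isoflurane in control liver, and 9 were higher in septic liver, where DESeq2 gave 7. For the interaction, 2 members were lower with no filter on low counts and 2 with counts thinned to the shallowest library. Leaving out 1 library gave 2 to 5 members higher in sepsis under isoflurane, 1 to 6 higher and 1 to 5 lower under isoflurane in septic liver, and 0 to 2 higher and 0 to 12 lower in the interaction. The other counts of members stayed within 1.5 times of their value under every alternative run.

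Directions that changed all belonged to values without a call. In sepsis under isoflurane, log2 values turned to 0.0038 for Fdps and 0.00011 for Gpam with RLE size factors, and for Scd to -0.058 with library totals alone, -0.14 with limma-voom and -0.020 with no filter. In control liver, library totals alone gave -0.018 for Ebp and -0.016 for Scap. With 1 library left out, values in sepsis under isoflurane ran from -0.12 to 0.13 for Fdps, -0.12 to 0.048 for Sqle, -0.32 to 0.078 for Lss, -0.36 to 0.25 for Scd, -0.56 to 0.26 for Gpam, -0.68 to 0.20 for Lpin1 and -0.54 to 0.15 for Lpin2. Under propofol they ran from -0.14 to 0.058 for Hmgcs1, -0.026 to 0.17 for Idi1, -0.11 to 0.026 for Fdps, -0.42 to 0.062 for Insig2 and -0.18 to 2.44 for Scd. Library totals alone also moved the median over all genes in septic liver by -0.16, and that over members there from 0.068 to -0.077. At these depths Elovl6 and other genes with a few reads per library could not be tested.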
